A study of Homo sapiens with 28 samples.

Results

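The genes described here are those of the neuropeptides NPY and CCK and of the neuropeptide Y receptors NPY1R and NPY5R, 4 genes chosen by symbol. Of these, 3 had a row among the 35488 genes of the deposited table (CCK, NPY1R and NPY5R), and NPY was not analysed here. The cells were SK-N-MC, a long-established human line derived from Ewing sarcoma, which is driven by a fusion of EWSR1 with the ETS transcription factor gene FLI1. The cells carried a doxycycline-inducible short hairpin RNA and were kept with 100 ng/ml doxycycline for 24 or 48 h, the controls included. The groups at each time were shFLI1, which silences EWS-FLI1 (3 libraries), shCHD4#1 and shCHD4#2, directed at CHD4, an ATPase of the NuRD chromatin remodelling complex (3 libraries each), and the control hairpin shScramble (5 libraries), 28 libraries in all. Whether each hairpin line is a clone or a pool is not given in the sources used here. All groups come from 1 cell line, so differences describe that line.

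Neuropeptides are made as precursors, cut by proprotein convertases, amidated and released from dense-core granules. Neuropeptide Y acts through a family of receptors coupled to inhibitory G proteins, of which the Y1 receptor (NPY1R) and the Y5 receptor (NPY5R) are encoded by neighbouring genes on opposite strands. Ewing sarcoma is known for expressing neuropeptide Y with its Y1 and Y5 receptors, and for expressing CCK, the precursor of cholecystokinin, a peptide of gut and brain that acts through CCKAR and CCKBR. EWS-FLI1 binds DNA at the ETS core GGAA and at runs of GGAA repeats.

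Sequences upstream of RefSeq starts of the genes that fell are shown because the silenced factor recognises GGAA. In GRCh38, NPY1R (ENSG00000164128) lies on the minus strand of chromosome 4 from 163323961 to 163344832, NPY5R (ENSG00000164129) on the plus strand from 163343939 to 163351934, and CCK (ENSG00000187094) on the minus strand of chromosome 3 from 42257825 to 42266207. The annotated spans of the 2 receptor genes share 894 bases, and their first RefSeq transcript starts are 11296 bases apart. The sequences are the 250 bases before each RefSeq start (GRCh38.p14), 5′ to 3′ on the gene's own strand: chr4:163332597-163332846 for NPY1R, and chr3:42266186-42266435 and chr3:42263948-42264197 for the upstream and downstream starts of CCK. Capitals mark GGAA and, for the other strand, TTCC.
NPY1R: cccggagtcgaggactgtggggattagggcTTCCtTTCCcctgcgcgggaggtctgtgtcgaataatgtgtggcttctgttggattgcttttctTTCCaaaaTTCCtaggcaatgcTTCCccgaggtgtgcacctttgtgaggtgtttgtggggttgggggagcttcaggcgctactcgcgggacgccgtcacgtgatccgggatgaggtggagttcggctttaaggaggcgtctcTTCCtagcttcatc
CCK, upstream start: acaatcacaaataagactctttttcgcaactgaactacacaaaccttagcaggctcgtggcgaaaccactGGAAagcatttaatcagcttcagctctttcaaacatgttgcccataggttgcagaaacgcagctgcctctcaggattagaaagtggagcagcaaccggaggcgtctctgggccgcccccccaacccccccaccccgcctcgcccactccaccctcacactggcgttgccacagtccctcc
CCK, downstream start: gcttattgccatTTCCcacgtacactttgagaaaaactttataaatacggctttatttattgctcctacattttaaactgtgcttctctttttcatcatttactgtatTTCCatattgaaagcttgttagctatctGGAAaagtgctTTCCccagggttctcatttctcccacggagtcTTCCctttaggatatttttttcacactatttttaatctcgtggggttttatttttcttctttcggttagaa

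NPY1R held 6 such matches, the upstream CCK window 1 and the downstream CCK window 5. The motif is common: 92.7% of 35116 RefSeq windows of the same length held at least 1, with a median of 3. The 2 windows of NPY5R, at chr4:163343642-163343891 and chr4:163343852-163344101, held 3 and 1. The tandem repeat GGAAGGAA (TTCCTTCC on the other strand), which contains GGAA, occurred in none of the windows of NPY1R, CCK or NPY5R and in 3.06% of all windows. CACGTG, the same on both strands, occurred once in the NPY1R window and once in the upstream NPY5R window, and in 6.34% of all windows. The downstream CCK window was 34.8% G and C, against a median of 58.0% over all windows. These are matches of letters and say nothing of binding. The NPY1R window and the downstream CCK window lie within the annotated spans of their genes. The annotated 5′ end of NPY1R was thus not examined, and which starts these cells use was not tested.

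Values are normalised counts, the authors' read counts divided by a size factor per library. Recovered reads numbered 46102707 to 64775441 per library. CHD4 averaged 2990 ± 240 with shCHD4#1 and 3075 ± 351 with shCHD4#2 at 24 h, against 11550 ± 1236 with shScramble (SD, n = 3, 3 and 5). At 48 h CHD4 averaged 3189 ± 267 with shCHD4#1 and 2750 ± 44.1 with shCHD4#2, against 11605 ± 1563 with shScramble. FLI1 averaged 1856 ± 148 with shFLI1 at 24 h and 1669 ± 141 at 48 h, against 4153 ± 408 and 3783 ± 454 with shScramble at the same times. For shScramble at 48 h the genotype field names a CHD4 knockdown, against the titles, while CHD4 stood at the level of the 24 h controls. At 48 h FLI1 was also lower with shCHD4#2 (log2 -0.34, limma adjusted p = 0.0291), and at 24 h CHD4 was higher with shFLI1 (0.34, adjusted p = 0.0176). Over all 28 libraries, 9 of 9 Ewing sarcoma markers had a mean of at least 100, as did 2 of 4 fibroblast, 2 of 4 neuron, 0 of 3 detected epithelial, 0 of 4 blood and 0 of 3 endothelial markers. Some of these moved with shFLI1. All 9 Ewing sarcoma markers had a lower mean with shFLI1 than with shScramble at 48 h. The 9 include EWSR1 and FLI1, the target of the hairpin, whose fall is not a separate result. NR0B1 averaged 65.2 ± 11.5 with shFLI1 at 48 h, against 1261 ± 361 with shScramble, and STEAP1 170 ± 6.63 against 3059 ± 455. EWSR1 averaged 13198 ± 451 against 16925 ± 1881. PDGFRB, a fibroblast marker, averaged 7914 ± 1472 with shFLI1 at 48 h, against 909.6 ± 272 with shScramble, while COL1A1 averaged 383 ± 97.5 against 1095 ± 413. PTPRC, a blood marker, averaged 313 ± 31.8 with shFLI1 at 24 h, against 47.1 ± 10.5 with shScramble. TUBB3, a neuron marker, averaged 963 ± 127 with shFLI1 at 48 h, against 3449 ± 916 with shScramble. The part of these markers in the results was not tested.

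Replicate 3 of shFLI1 at 48 h stood apart from the other two of its group. CDH1, E-cadherin of epithelial cells, was at 2.36, 20.7 and 783 normalised counts in replicates 1, 2 and 3 of that group, and EPCAM was at most 5.91 in replicates 1 and 2 and 43.6 in replicate 3. Chosen after these values were seen, a count of genes at 100 or more and at least 10 times every other replicate gave 252 in that library and 0 to 5 in each of the other 27. Results with shFLI1 at 48 h are therefore also given without it where a call or a count changes. Over all 21025 genes tested, 6209 were called higher and 6179 lower without it, against 6768 and 6661 with it. The percentages over all genes given below for shFLI1 at 48 h include this library. The source of this difference was not tested.

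In the shScramble, shCHD4#1 and shCHD4#2 groups, replicates 1 and 2 (12 libraries, here the first kind) stood apart by their share of reads on processed pseudogenes, 0.313 to 0.388%, against 0.223 to 0.283% in the other 16 (the second kind, which includes every shFLI1 library). The labels do not name this split. Values are given by kind where it moves with a member. In bulk RNA, fewer cells with a transcript and less of it per cell cannot be told apart.

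CCK, the peptide precursor, fell with EWS-FLI1 silencing at both times and with both CHD4 hairpins at 48 h. At 24 h its normalised counts were 1195, 888 and 703 with shFLI1, against 3419, 3121, 4292, 3894 and 4991 with shScramble. At 48 h they were 360, 258 and 251 with shFLI1, against 3190, 2461, 5263, 4613 and 6124 with shScramble. The groups did not overlap at either time, and the mean with shFLI1 was 23.6% of that with shScramble at 24 h and 6.69% at 48 h. The log2 change was -2.10 ± 0.24 (SE) at 24 h and -3.84 ± 0.33 at 48 h in limma, with Benjamini-Hochberg adjusted p-values of 6.71e-06 and 1.78e-07. Without replicate 3 of shFLI1 at 48 h it was -3.75 (limma adjusted p = 3.66e-06). Calls were common in these comparisons: 22.5% of the 21025 genes tested were lower with shFLI1 at 24 h and 31.7% at 48 h.

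The CHD4 hairpins gave smaller falls of CCK. At 24 h CCK stood at 3346, 2267 and 3333 with shCHD4#1 and at 2806, 1401 and 2824 with shCHD4#2, against 3121 to 4991 with shScramble. The shCHD4#1 libraries overlapped the controls and the shCHD4#2 libraries lay below them. The log2 change at 24 h was -0.41 ± 0.24 with shCHD4#1 (limma adjusted p = 0.320) and -0.80 ± 0.24 with shCHD4#2 (adjusted p = 0.0454), where 6.14% and 7.01% of all genes tested were called lower. The shCHD4#2 call at 24 h was lost without replicate 2 of that group, at -0.47 (limma adjusted p = 0.298). It was also lost without shScramble replicate 1 (-0.85), 3 (-0.77), 4 (-0.80) or 5 (-0.71), and, at an unchanged -0.80, without shCHD4#1 replicate 1 or 3 or shFLI1 replicate 2.

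At 48 h CCK stood at 1823, 1301 and 2106 with shCHD4#1 and at 1516, 560 and 1453 with shCHD4#2, against 2461 to 6124 with shScramble. Both hairpins lay wholly below the controls. The log2 change was -1.26 ± 0.33 with shCHD4#1 (limma adjusted p = 0.0116) and -1.94 ± 0.33 with shCHD4#2 (adjusted p = 0.000468), where 15.5% and 20.3% of all genes tested were lower. Without replicate 2 of shCHD4#1 that change was -1.07 and its call was lost (limma adjusted p = 0.0727).

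CCK also moved with the kind of library. Among 48 h shScramble libraries it was 3190 and 2461 in the first kind and 5263, 4613 and 6124 in the second. Within the first kind at 48 h, the values were 1823 and 1301 with shCHD4#1 and 1516 and 560 with shCHD4#2, all below both controls. Within the second kind, 2106 with shCHD4#1 and 1453 with shCHD4#2 also lay below all 3 controls. With second-kind libraries alone the shCHD4#2 change at 24 h was -0.63 (limma adjusted p = 0.208).

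NPY1R, the Y1 receptor gene, fell in all 6 comparisons with shScramble. Of all genes tested, 22.5% were called lower with shFLI1 at 24 h and 31.7% at 48 h. With shCHD4#1 the shares at these times were 6.14% and 15.5%, and with shCHD4#2 7.01% and 20.3%. How many of all genes lay outside the control range was not counted, here or for CCK. At 24 h the normalised counts of NPY1R were 501, 479 and 415 with shFLI1, against 2622, 2360, 2400, 1940 and 2766 with shScramble. At 48 h they were 231, 218 and 166 with shFLI1, against 2547, 2313, 2303, 2059 and 2325 with shScramble. No shFLI1 library came near the control range, and the mean was 19.2% of that with shScramble at 24 h and 8.89% at 48 h. The log2 change was -2.37 ± 0.16 at 24 h (limma adjusted p = 4.67e-08) and -3.50 ± 0.15 at 48 h (adjusted p = 2.62e-10), or -3.35 without replicate 3 of shFLI1 at 48 h (adjusted p = 5.06e-09). The read share of mitochondrial ribosomal RNA in shFLI1 libraries was 18.0 to 19.9% at 24 h, where shScramble libraries had 15.2 to 17.8%. At 48 h shFLI1 libraries had 22.1 to 22.5% and shScramble libraries 16.2 to 18.0%. The groups did not overlap at either time, and its part in these falls was not tested.

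With the CHD4 hairpins NPY1R took intermediate levels. At 24 h it stood at 1727, 1226 and 1404 with shCHD4#1 and at 1513, 921 and 1170 with shCHD4#2, all below the shScramble range. At 48 h it stood at 1054, 936 and 1016 with shCHD4#1 and at 992, 585 and 676 with shCHD4#2, again all below it. These means were 60.1% and 49.7% of the shScramble mean at 24 h, and 43.4% and 32.5% at 48 h. With shCHD4#1 the log2 change was -0.74 ± 0.16 at 24 h (limma adjusted p = 0.00840) and -1.20 ± 0.15 at 48 h (adjusted p = 7.52e-05). With shCHD4#2 it was -1.03 ± 0.16 at 24 h (limma adjusted p = 0.000932) and -1.65 ± 0.15 at 48 h (adjusted p = 2.97e-06). The shCHD4#1 call at 24 h was lost without replicate 2 of that group, at -0.62 (limma adjusted p = 0.0717), and with second-kind libraries alone, at -0.74 (adjusted p = 0.0622).

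**Figure D1:**
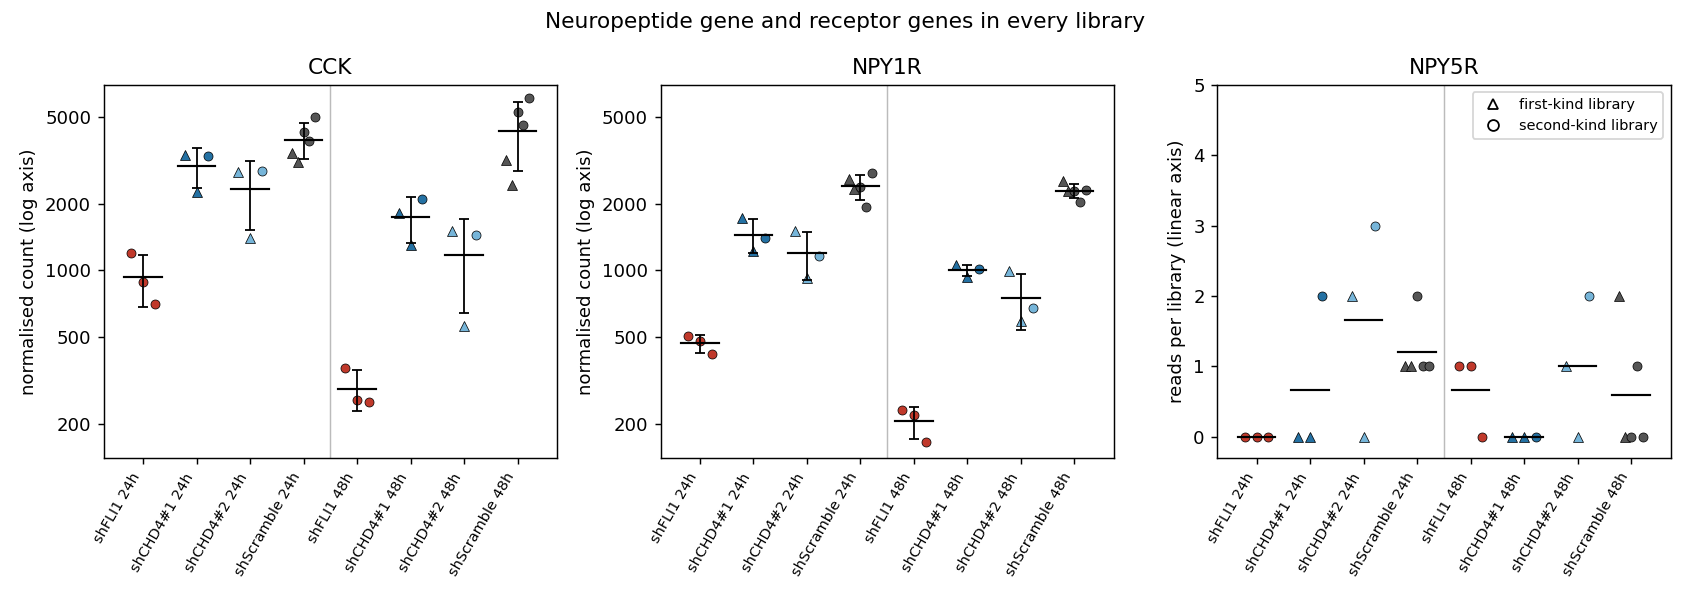
CCK and NPY1R are plotted as normalised counts per library on log axes, and NPY5R as reads per library on a linear axis, for 8 groups; black lines are means, bars are the SD, triangles first-kind and circles second-kind libraries. The shFLI1 libraries at 48 h are lowest for CCK (251 to 360) and NPY1R (166 to 231), below shScramble at 2461 to 6124 and 2059 to 2547, and NPY5R reached at most 3 reads.

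The authors' deposited table for shFLI1 at 48 h gave log2 changes of -3.69 for NPY1R (adjusted p = 1.72e-39) and -4.21 for CCK (adjusted p = 9.04e-20). In the authors' deposited tables for 48 h, NPY1R was at -1.20 with shCHD4#1 (adjusted p = 0.00368) and -1.63 with shCHD4#2 (adjusted p = 1.12e-08). CCK there was at -0.94 with shCHD4#1 (adjusted p = 0.973) and -1.56 with shCHD4#2 (adjusted p = 0.00554), all from the authors' deposited tables. At 24 h the authors' deposited tables had NPY1R at -0.71 with shCHD4#1 (adjusted p = 1) and -1.002 with shCHD4#2 (adjusted p = 0.471). CCK at 24 h was at -0.080 with shCHD4#1 and -0.28 with shCHD4#2 in the authors' deposited tables (adjusted p = 1 for both), nearer to 0 than the -0.41 and -0.80 of the limma fit. In those tables the p-value was exactly 1 for 36.9 to 68.8% of genes. NPY1R with shCHD4#1 at 24 h had a standard error of 0.171 there beside its -0.71, and an unadjusted p of 0.254 by the authors. Such p-values are not those of a plain test against a change of 0. They therefore cannot be set against the limma p-values, which test against 0.

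The order of the levels was much the same for both genes. NPY1R means ran, from the lowest, shFLI1 48 h (205 ± 34.6), shFLI1 24 h (465 ± 45.1), shCHD4#2 48 h (751 ± 213), shCHD4#1 48 h (1002 ± 60.4), shCHD4#2 24 h (1201 ± 297), shCHD4#1 24 h (1452 ± 254), shScramble 48 h (2310 ± 173) and shScramble 24 h (2418 ± 314; SD, n = 3 per knockdown group and 5 per shScramble group). Ranges of neighbours in that order overlapped among the 4 CHD4 groups and between the 2 shScramble groups, and did not overlap at the other steps. CCK means ran shFLI1 48 h (290 ± 61.2), shFLI1 24 h (929 ± 249), shCHD4#2 48 h (1176 ± 534), shCHD4#1 48 h (1743 ± 409), shCHD4#2 24 h (2343 ± 816), shCHD4#1 24 h (2982 ± 619), shScramble 24 h (3943 ± 737) and shScramble 48 h (4330 ± 1497). Every neighbouring pair in the CCK order overlapped except shFLI1 48 h with shFLI1 24 h. Per kilobase of GENCODE exon (4180 bases for NPY1R and 2085 for CCK), NPY1R averaged 49.1 with shFLI1 at 48 h and 553 with shScramble, and CCK averaged 139 with shFLI1 and 2077 with shScramble, so CCK was the more abundant transcript per length in both groups.

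Both genes were lower with shFLI1 than with the CHD4 hairpins. The hairpins lowered their own targets unequally, so this does not rank the 2 factors. At 48 h FLI1 changed by a log2 of -1.17 with shFLI1, and CHD4 by -1.86 with shCHD4#1 and -2.07 with shCHD4#2. NPY1R was lower with shFLI1 than with the mean of both CHD4 hairpins by a log2 difference of -1.49 ± 0.15 at 24 h (limma adjusted p = 2.27e-06) and -2.07 ± 0.15 at 48 h (adjusted p = 2.27e-08). CCK was lower by -1.50 ± 0.23 at 24 h (limma adjusted p = 9.27e-05) and -2.24 ± 0.32 at 48 h (adjusted p = 2.72e-05). Among all genes tested, 24.8% at 24 h and 32.8% at 48 h were lower in these comparisons. All shFLI1 libraries are of the second kind, while most libraries of each CHD4 group are of the first. The values that follow are therefore against shScramble, not against the CHD4 hairpins. With second-kind libraries alone, shFLI1 minus shScramble at 48 h was -3.45 for NPY1R (limma adjusted p = 1.60e-07) and -4.21 for CCK (adjusted p = 1.55e-07).

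Of the 2 CHD4 hairpins, shCHD4#1 gave the higher values of both genes at both times, in every pair of same-numbered libraries. The limma values that follow ignore this pairing unless it is named. At 24 h shCHD4#1 minus shCHD4#2 was 0.29 ± 0.18 for NPY1R (limma adjusted p = 0.362) and 0.40 ± 0.27 for CCK (adjusted p = 0.414), where 5.62% of all genes tested were higher. At 48 h it was 0.45 ± 0.17 for NPY1R (limma adjusted p = 0.0499) and 0.67 ± 0.37 for CCK (adjusted p = 0.174), where 19.2% were higher. The NPY1R call stands at the threshold and was lost in 16 of 24 alternatives, at 0.29 without replicate 2 of shCHD4#2 (limma adjusted p = 0.231). Of the 14 fits with 1 library left out, the call held without shCHD4#2 replicate 1 (0.67) and without shFLI1 replicate 3 (0.45), and the other 12 lost it. Blocking on the replicate number, which pairs these libraries, left the CCK difference at 0.67 and called it (limma adjusted p = 0.0472).

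The falls with shFLI1 deepened between 24 and 48 h. The shFLI1 change at 48 h minus that at 24 h was -1.13 ± 0.23 for NPY1R (limma adjusted p = 0.000986) and -1.74 ± 0.44 for CCK (adjusted p = 0.00685), and 9.44% of all genes tested had a change lower at 48 h. For shCHD4#1 the same difference was -0.46 ± 0.23 for NPY1R and -0.86 ± 0.44 for CCK (limma adjusted p = 1 for both), where 0.00476% of genes were lower. For shCHD4#2 it was -0.62 ± 0.23 for NPY1R (limma adjusted p = 0.183) and -1.13 ± 0.44 for CCK (adjusted p = 0.214), where 0.694% were lower. Without replicate 1 of shCHD4#2 at 48 h the NPY1R difference was -0.84 and was called (limma adjusted p = 0.0229). In shScramble libraries, 48 h minus 24 h was -0.06 ± 0.14 for NPY1R and 0.08 ± 0.27 for CCK (limma adjusted p = 1.00 for both).

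**Figure D2:**
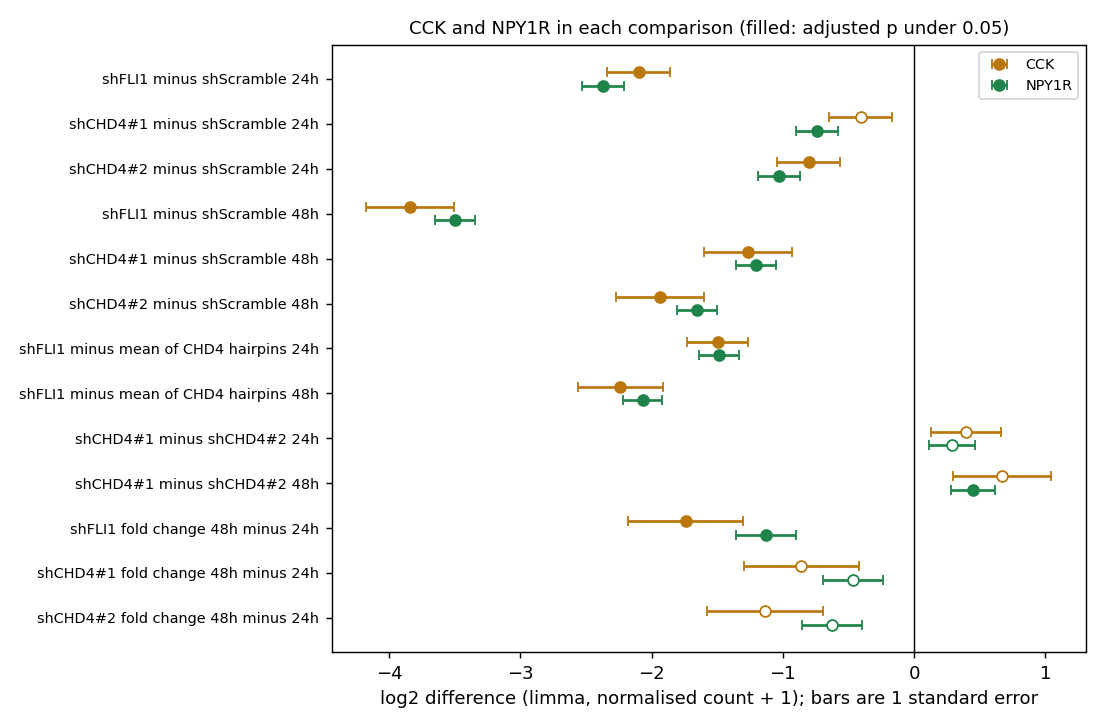
Log2 differences of CCK and NPY1R in each comparison with bars of 1 standard error, on the scale of normalised count + 1; filled points passed an adjusted p of 0.05. Each knockdown minus shScramble lies below 0 for both genes, furthest with shFLI1 at 48 h (-3.84 for CCK and -3.50 for NPY1R).

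NPY5R, the Y5 receptor gene next to NPY1R, was close to undetected. It had 0, 0 and 0 reads with shFLI1 at 24 h, 0, 0 and 2 with shCHD4#1, 2, 0 and 3 with shCHD4#2, and 1, 1, 2, 1 and 1 with shScramble. At 48 h it had 1, 1 and 0 reads with shFLI1, 0, 0 and 0 with shCHD4#1, 1, 0 and 2 with shCHD4#2, and 2, 0, 0, 1 and 0 with shScramble. No library held more than 3 reads, the limit that a count of 0 allows, so no fold is given and a difference was not detectable at this depth. Its mean of 0.751 normalised counts lay under the minimum of 10 for testing. Fitted with no minimum, shFLI1 minus shScramble had a limma adjusted p of 0.0836 at 24 h and 0.690 at 48 h.

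Other genes of both peptide families were at low levels. Of the 6 further NPY family genes, 4 had a row and 1 was tested, PYY, which encodes peptide YY. PYY averaged 29.02 ± 6.99 with shFLI1, 36.4 ± 10.6 with shCHD4#1 and 20.5 ± 8.77 with shCHD4#2 at 48 h, against 15.03 ± 6.08 with shScramble. It was higher with shFLI1 (log2 0.96, limma adjusted p = 0.0306) and shCHD4#1 (1.26, adjusted p = 0.0176), and at 0.41 with shCHD4#2 (adjusted p = 0.397). Of CCK's partners, the receptor gene CCKAR was tested and CCKBR held at most 4 reads in a library. CCKAR averaged 6.79 ± 4.09 with shFLI1, 19.2 ± 7.86 with shCHD4#1 and 3.74 ± 3.02 with shCHD4#2 at 48 h, against 27.4 ± 8.001 with shScramble. It fell with shFLI1 (log2 -1.93, limma adjusted p = 0.00128) and shCHD4#2 (-2.70, adjusted p = 0.000264), and was at -0.50 with shCHD4#1 (adjusted p = 0.421).

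Genes that process precursors divided by direction. Of 12 tested genes of 14 listed, 7 were higher and 3 lower with shFLI1 at 48 h, where 32.2% and 31.7% of all genes tested were. The median log2 change was 0.43, against 0.01 over all genes. Without replicate 3 of shFLI1, 4 were lower. The convertase PCSK2, which acts in regulated secretory granules, averaged 700 ± 86.1 with shFLI1 at 48 h, against 3122 ± 858 with shScramble (limma adjusted p = 9.58e-06). PCSK6 averaged 658 ± 18.5 against 2638 ± 279 (adjusted p = 1.61e-09 in limma). FURIN, a convertase of the trans-Golgi network, averaged 3471 ± 435 with shFLI1 against 1855 ± 169 (limma adjusted p = 2.50e-06), and PCSK5 2223 ± 337 against 511 ± 65.5 (adjusted p = 5.22e-08). With both CHD4 hairpins at 48 h, 3 genes were called in 1 direction. Over all genes tested, 12.9% were higher and 15.5% lower with shCHD4#1, and 17.5% and 20.3% with shCHD4#2. The share of all genes called with both in 1 direction was not counted. PCSK5 fell to 342 ± 102 with shCHD4#1 and 331 ± 30.0 with shCHD4#2, the opposite direction to shFLI1, and TPST2, a tyrosylprotein sulfotransferase, fell to 408 ± 52.4 and 317 ± 49.2, against 537 ± 45.6 with shScramble. PCSK7 rose to 1591 ± 165 with shCHD4#1 and 1822 ± 249 with shCHD4#2, against 1169 ± 62.5.

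Peptidases listed for cutting NPY or CCK, cell-surface enzymes and intracellular ones such as XPNPEP1 and TPP2, were mostly higher with shFLI1. Of 8 tested of 11 listed, 6 were higher and 2 lower at 48 h (32.2% and 31.7% over all genes tested), with a median log2 change of 1.74. One of the 6, DPP4, stood at 17.7, 49.4 and 660 in replicates 1, 2 and 3 of shFLI1. Without replicate 3 its call was lost (limma adjusted p = 0.0684), 5 were higher and 2 lower, and the median was 1.27. MME, neprilysin, averaged 322 ± 19.8 with shFLI1 at 48 h, against 6.47 ± 6.84 with shScramble (limma adjusted p = 6.15e-07). FAP, a prolyl peptidase, averaged 1070 ± 212 against 138 ± 81.9 (limma adjusted p = 4.30e-06), and ECE1, endothelin-converting enzyme, 7036 ± 641 against 2973 ± 84.9 (adjusted p = 4.86e-09). TPP2, which can inactivate cholecystokinin, averaged 5241 ± 123 with shFLI1 against 9748 ± 677 (limma adjusted p = 5.71e-07). With shCHD4#1, 1 was higher and 0 lower, and with shCHD4#2, 2 were higher and 1 lower at 48 h. Over all genes, 12.9% were higher with shCHD4#1 and 17.5% with shCHD4#2.

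Dense-core granule genes, whose products store and release peptides, leaned lower with shFLI1. Of 13 tested of 16 listed, 7 were lower and 0 higher at 24 h, where 22.5% and 24.2% of all genes tested were. At 48 h 6 were lower and 3 higher, where 31.7% and 32.2% were, nearer the background than at 24 h. The median log2 changes were -0.92 at 24 h and -0.63 at 48 h. CADPS2, a priming factor for granule release, averaged 3322 ± 247 with shFLI1 at 48 h, against 13034 ± 1880 with shScramble (limma adjusted p = 2.20e-08). SYT7, a calcium sensor, averaged 26.2 ± 7.85 against 124 ± 24.5 (limma adjusted p = 1.34e-06), and SYT4 5.31 ± 1.96 against 75.0 ± 30.0 (adjusted p = 1.55e-05). CHGA, chromogranin A, averaged 4.89 ± 0.911 with shFLI1 and 56.1 ± 10.4 with shCHD4#1, against 21.4 ± 4.43 with shScramble at 48 h, called lower and higher (limma adjusted p = 2.17e-05 and 0.00195). SCG2, secretogranin II, was the gene called with both CHD4 hairpins at both times. At 48 h it averaged 371 ± 42.4 with shFLI1 (limma adjusted p = 0.174), 152 ± 40.5 with shCHD4#1 (adjusted p = 0.000122) and 221 ± 98.0 with shCHD4#2 (adjusted p = 0.000952), against 478 ± 48.4 with shScramble.

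**Figure D3:**
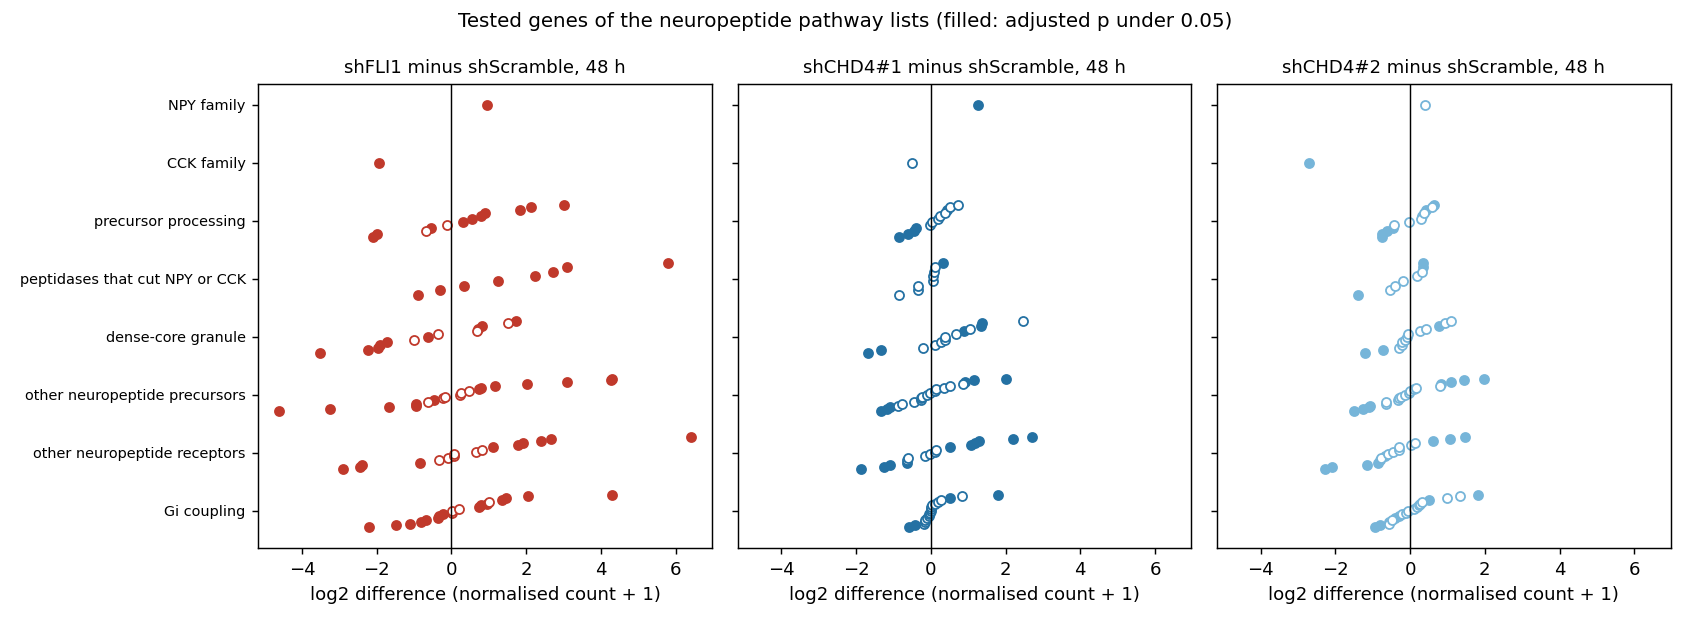
Each point is a tested gene of the 8 pathway lists, placed at its log2 difference from shScramble at 48 h on the scale of normalised count + 1, with filled points past an adjusted p of 0.05. With shFLI1, 6 of 8 peptidases lie filled to the right (5 without replicate 3), and the points reach further from 0 than with either CHD4 hairpin.

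Other neuropeptide precursors were called in both directions. Of 19 tested of 53 listed, 7 were higher and 6 lower with shFLI1 at 48 h, 3 and 3 with shCHD4#1, and 4 and 4 with shCHD4#2. Over all genes tested, 32.2% and 31.7% were higher and lower with shFLI1, 12.9% and 15.5% with shCHD4#1, and 17.5% and 20.3% with shCHD4#2, so these shares were near the background. Without replicate 3 of shFLI1, 7 were higher and 5 lower. ADM, adrenomedullin, averaged 6280 ± 1527 with shFLI1 against 315 ± 39.2 with shScramble (limma adjusted p = 3.11e-09), and APLN, apelin, 785 ± 347 against 86.8 ± 23.1 (adjusted p = 9.96e-08). NPPC, C-type natriuretic peptide, averaged 80.0 ± 32.3 against 3.26 ± 1.56 (limma adjusted p = 2.80e-07). PROK2, prokineticin 2, averaged 14.3 ± 4.01 with shFLI1 against 141 ± 4.11 (limma adjusted p = 1.72e-08). NMB, neuromedin B, fell with both CHD4 hairpins, to 201 ± 30.9 with shCHD4#1 and 208 ± 48.0 with shCHD4#2 at 48 h, against 429 ± 46.5 (limma adjusted p = 0.000283 and 0.000218). PDYN, prodynorphin, was at 0 in all 3 shFLI1 libraries at 48 h and averaged 9.84 ± 5.53 with shCHD4#1 and 11.1 ± 8.74 with shCHD4#2, against 24.1 ± 6.35 (limma adjusted p = 0.0478 and 0.0469 for the hairpins to CHD4).

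Of 16 tested receptors for other neuropeptides, of 64 listed, 6 were higher and 4 lower with shFLI1 at 48 h, 6 and 4 with shCHD4#1, and 3 and 6 with shCHD4#2. The shares over all genes tested were 32.2% higher and 31.7% lower with shFLI1, 12.9% and 15.5% with shCHD4#1, and 17.5% and 20.3% with shCHD4#2. CALCRL, the adrenomedullin and CGRP receptor, averaged 6340 ± 728 with shFLI1 against 1194 ± 114 with shScramble (limma adjusted p = 3.73e-09). TRHR, the thyrotropin-releasing hormone receptor, averaged 129 ± 19.4 with shFLI1 against 0.603 ± 0.555 (limma adjusted p = 1.23e-08). PTH1R, a parathyroid hormone receptor, was higher with all 3 hairpins at 48 h, at 219 ± 27.3 with shFLI1, 74.7 ± 29.8 with shCHD4#1 and 70.6 ± 3.72 with shCHD4#2, against 34.6 ± 10.8 (limma adjusted p = 7.10e-07, 0.00798 and 0.00620). QRFPR, a receptor of the RFamide peptide QRFP, was lower with all 3, at 25.3 ± 5.78 with shFLI1, 90.7 ± 24.0 with shCHD4#1 and 47.7 ± 24.3 with shCHD4#2, against 192 ± 32.7 (limma adjusted p = 6.43e-07, 0.0108 and 7.25e-05). OXTR, the oxytocin receptor, was lower with all 3 as well, at 47.3 ± 5.17 with shFLI1, 22.9 ± 6.04 with shCHD4#1 and 47.8 ± 14.9 with shCHD4#2, against 86.2 ± 18.5 (limma adjusted p = 0.0109, 0.000130 and 0.0163).

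The inhibitory G protein pathway through which Y receptors signal had 19 tested genes of 24 listed. With shFLI1 at 48 h 7 were higher and 8 lower, with shCHD4#1 2 and 2, and with shCHD4#2 2 and 5. These lay near the shares over all genes tested, 32.2% higher and 31.7% lower with shFLI1, 12.9% and 15.5% with shCHD4#1, and 17.5% and 20.3% with shCHD4#2. Without replicate 3 of shFLI1, 7 were higher and 6 lower. GNAI1, an inhibitory G protein subunit, averaged 5893 ± 259 with shFLI1 against 3038 ± 271 with shScramble (limma adjusted p = 2.11e-07). Among the adenylyl cyclases that this pathway inhibits, ADCY6 averaged 4269 ± 79.9 with shFLI1 against 1031 ± 126 (limma adjusted p = 1.44e-09) and ADCY3 886 ± 59.7 against 1908 ± 91.9 (adjusted p = 4.21e-08). KCNJ5, a potassium channel opened by G protein subunits, averaged 134 ± 6.63 with shFLI1 against 5.89 ± 1.14 (limma adjusted p = 1.59e-07). With both CHD4 hairpins ADCY1 rose, to 49.8 ± 3.01 with shCHD4#1 and 50.8 ± 0.601 with shCHD4#2 against 14.5 ± 5.95 (limma adjusted p = 0.000334 and 0.000178), and ARRB2, beta-arrestin, fell, to 1187 ± 192 and 1011 ± 84.1 against 1785 ± 234 (adjusted p = 0.00230 and 0.000137). GNAO1 was called higher with both at 24 h, at 27.0 ± 15.02 with shCHD4#1 and 23.6 ± 2.44 with shCHD4#2, against 7.94 ± 1.503 (limma adjusted p = 0.0116 and 0.0141).

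Neighbours of the receptor genes also fell with shFLI1. Of 17 genes within 1 Mb of NPY1R, 5 were tested, and all 5 of these were lower at both times (22.5% of all genes tested at 24 h and 31.7% at 48 h). The 5 are not separate loci. AC093788.1 and AC105250.1, with means of 75.0 and 16.1 normalised counts, lie within the span of MARCH1 on the opposite strand. The strand setting is not stated, so their reads cannot be told from those of MARCH1 with certainty. NAF1, a factor of small nucleolar RNA assembly and the nearest tested gene on the lower side at 157040 bases, changed by a log2 of -1.87 with shFLI1 at 48 h (limma adjusted p = 3.23e-10), by -0.11 with shCHD4#1 (adjusted p = 0.338) and by -0.02 with shCHD4#2 (adjusted p = 0.872). TMA16, a ribosome assembly factor and the nearest on the higher side at 149610 bases, changed by -1.25 with shFLI1 (limma adjusted p = 5.89e-07), -0.33 with shCHD4#1 (adjusted p = 0.0591) and -0.60 with shCHD4#2 (adjusted p = 0.00157). MARCH1, an E3 ubiquitin ligase gene, was chosen after its values were seen and changed by -3.77 with shFLI1 at 48 h (limma adjusted p = 1.20e-06). Near CCK the pattern was mixed. TRAK1, 31936 bases away, was higher with shFLI1 at 48 h by 0.77 (limma adjusted p = 4.37e-06), and the vasoactive intestinal peptide receptor VIPR1, 223092 bases away, was at 0.06 (adjusted p = 0.697). Of the 31 tested genes within 1 Mb of any of the 4 listed genes, 16 were lower and 8 higher with shFLI1 at 48 h, where 31.7% and 32.2% of all genes tested were. Without replicate 3 of shFLI1, 17 were lower and 7 higher.

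CCK and NPY1R varied together across libraries. Over the 28 libraries, Pearson's r between their log2 values was 0.957, and over the 22 without shFLI1 it was 0.875; the points share their group, the size factor and the library kind. Among 14215 other tested genes with a mean of at least 100, CCK ranked 16 for likeness to NPY1R and NPY1R ranked 10 for likeness to CCK over 28 libraries, and each ranked 268 over the 22 without shFLI1. The 3 genes most like NPY1R over 28 libraries were FCGRT (r = 0.978 over 28 libraries and 0.935 over 22), GABRQ (0.973 and 0.911) and LINC02732 (0.970 and 0.905), which ranked 55, 118 and 140 over 22. Those most like CCK were KCNE3 (0.964 and 0.919), FCGRT (0.963 and 0.906) and MRPL42 (0.963 and 0.896), which ranked 62, 108 and 151 over 22. FCGRT, a receptor for IgG that is also a marker of Ewing sarcoma, changed by a log2 of -2.17 with shFLI1 at 48 h (limma adjusted p = 3.27e-09), -0.95 with shCHD4#1 (adjusted p = 0.000107) and -1.15 with shCHD4#2 (adjusted p = 1.25e-05).

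**Figure D4:**
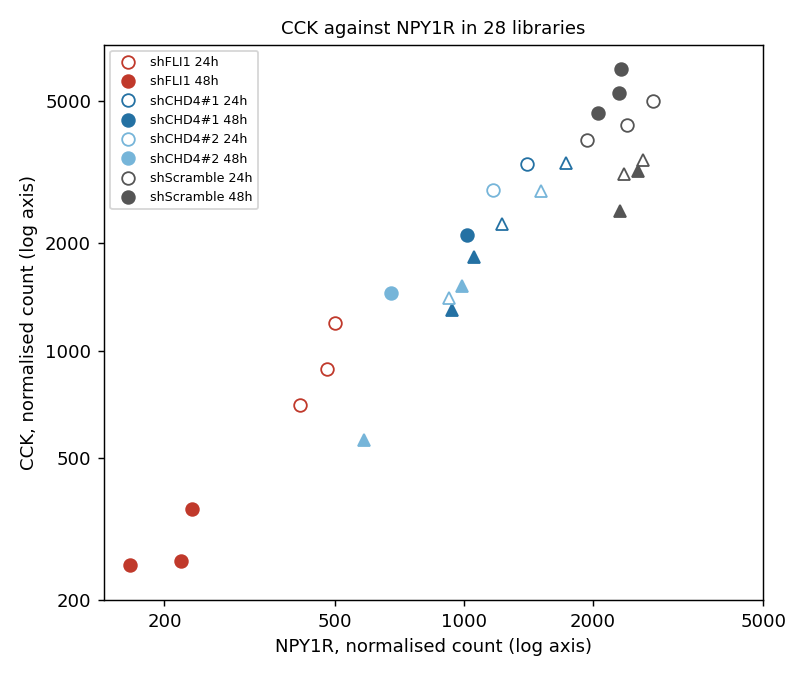
CCK against NPY1R, both as normalised counts on log axes, in 28 libraries; open points are 24 h, filled points 48 h, triangles first-kind and circles second-kind libraries. The shFLI1 libraries lie at the lower left, the CHD4 hairpins between, and shScramble at the upper right, where first-kind points have less CCK at like NPY1R.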

How the data were processed

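Per the submitters' processing notes, the build was GRCh38 and the tools named are featureCounts (1.6.0), HISAT2 (2.1.0), DESeq2 (1.34.0), FastQC (0.11.7) and SAMtools (1.7); settings, including strand, are not stated there, so reads in bases shared by NPY1R and NPY5R cannot be assigned with certainty. The deposited signal is a gene's read count divided by a size factor of the library. In the authors' comparison tables there is a log2 fold change and a p-value for each gene, and a deposited score (the test statistic) in 1 of them. By its values, the deposited table that names shFLI1 at 24 h compares other groups, so it was left out.

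All values were whole multiples of 1 read within a tolerance of 0.02, which gave reads per library. Groups came from titles and treatment labels, and replicates are biological per the labels; what separates them is not stated. limma 3.58.1 in R 4.3.3 (limma-trend, two-sided) was fitted to log2 of the deposited value plus a pseudocount of 1, a scale that understates changes of low genes. The 21025 of 35488 genes with a mean of at least 10 were tested, with Benjamini-Hochberg adjustment over all of them and calls at 0.05. Each time was fitted alone (14 libraries), and all 28 together for differences between times. The limma fit was also run on simulated data with known changes. edgeR 4.0.16 and DESeq2 1.42.0 on recovered reads, other scalings, pseudocounts, no minimum, library kind and each library left out were alternatives.

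Same-numbered libraries of shScramble and both CHD4 hairpins deviated together (correlation of deviations from the mean of replicates 1 to 3, 0.129 to 0.708). In these groups replicates 1 and 2 differ in kind from 3, so kind alone can give such correlations. The best match among replicates 1 to 3 was always the same-numbered library, also for replicates 1 and 2, which share a kind. The numbers were therefore taken to pair them. For shFLI1, all of the second kind, the correlations were -0.177 to 0.103. These lack the split by kind, so the 2 ranges cannot be set against each other. Members, gene lists and tests were chosen with earlier results of these data known. Named genes are the members, the targets, up to 4 genes per list with the smallest adjusted p for shFLI1 at 48 h, up to 3 per list called with both CHD4 hairpins, the 3 most correlated with each member and its nearest tested neighbours. Promoter sequences and starts are from RefSeq. The planned test of the NPY1R to NPY5R ratio is not reported, since NPY5R had 0 to 3 reads in every library.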

Additional observations from a re-analysis of the deposited data

Results flagged for a closer look

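The shFLI1 change of NPY1R was lower at 48 h than at 24 h by a log2 of -1.13, and that of CCK by -1.74; both passed the limma test of the difference between times. Of the 4 sets of 5 shScramble values examined (NPY1R and CCK at both times), 0 had a library set apart from the others.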

How the results depend on the processing

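Over 12 comparisons of NPY1R and CCK with shScramble and 288 alternatives, 274 kept direction and call, 14 lost the call and 0 reversed. Some of the 288 leave out a library of neither compared group, which cannot change the log2 difference, only its adjusted p. CCK with shCHD4#1 at 24 h was not called in the main fit and had no call to lose. The causes of the lost calls were not tested, and fewer libraries enter the second-kind and left-out fits. Second-kind libraries hold 1 per CHD4 hairpin and time, assumed to vary like the other groups. Values are log2 differences. For NPY1R with shCHD4#1 at 24 h the call was lost with second-kind libraries (-0.74), and leaving out 1 library gave -0.87 to -0.62. For CCK with shCHD4#2 at 24 h it was lost with no minimum (-0.80), second-kind libraries (-0.63) and edgeR (-0.72), and 1 library left out gave -0.97 to -0.47. For CCK with shCHD4#1 at 48 h 1 library left out gave -1.45 to -1.07. For NPY1R, shCHD4#1 minus shCHD4#2 at 48 h lost its call at a pseudocount of 0.5 (0.45), with no minimum (0.45), second-kind libraries (0.59) and edgeR (0.43), and 1 library left out gave 0.29 to 0.67. The replicate block called that of CCK (0.67). The NPY1R difference between times with shCHD4#2 was -0.84 to -0.44 with 1 library left out, called without replicate 1 of shCHD4#2 at 48 h. In shScramble, CCK at 48 h minus 24 h was -0.060 under the replicate block and -0.066 to 0.26 with 1 library left out.

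Pathway genes called at 24 h with shCHD4#1 (10 higher and 6 lower) numbered 3 and 3 in second-kind libraries and 17 and 10 with kind as a term. With shCHD4#2 at 24 h (3 and 8) they numbered 1 and 3, and 9 and 14, and the replicate block gave 6 higher. At 48 h shCHD4#2 had 15 higher of 89 pathway genes tested, where 17.5% of all genes tested were higher, and 23 with kind as a term. The 24 h counts of pathway genes are out of the same 89, and the counts over all genes are out of 21025. Over all genes, shCHD4#1 at 24 h had 1095 higher and 1290 lower, 456 and 554 in second-kind libraries, and 1994 and 2537 with kind as a term; shCHD4#2 had 851 and 1474, 231 and 520, and 1962 and 2722. The replicate block changed no other call of NPY1R or CCK. Under median centring the median of all genes stood at -0.11 for shFLI1 minus shScramble at 48 h, against 0.01 without it. NPY5R, at 3 reads or fewer, is limited by depth. Without replicate 3 of shFLI1 at 48 h, an alternative chosen after seeing the data, 36 pathway genes were higher and 28 lower with shFLI1. With all libraries 37 were higher and 30 lower, where 32.2% and 31.7% of all genes tested were.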

Other observations

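Near the NPY locus, whose own gene was not analysed here, 12 of 37 genes within 1 Mb were tested. MPP6, a membrane scaffold gene and the nearest tested neighbour on the higher side, changed by a log2 of -1.23 with shFLI1 at 48 h (limma adjusted p = 4.91e-09), 0.19 with shCHD4#1 (adjusted p = 0.0665) and 0.24 with shCHD4#2 (adjusted p = 0.0198). CCDC126, the nearest on the lower side, was at -0.06 with shFLI1 at 48 h (limma adjusted p = 0.808).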
